A study of Homo sapiens with 32 samples.

Results

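HEC265 is an established human endometrial cancer cell line whose genotype is given as CTNNB1-mutated, CTNNB1 being the gene of beta-catenin. The comparison described here is between HEC265 cells given paclitaxel and SM08502 together and HEC265 cells given vehicle. It was chosen by the line and treatment labels alone and comprises 4 of the 32 RNA sequencing libraries of the study, 2 per group. Combination cells received 5.6 nM paclitaxel and 149 nM SM08502, each the viability IC50 of this line, for 24 h, and vehicle cells received 0.1% DMSO for the same time. The other 28 libraries are the single agents in HEC265, at the same doses and time, and the same 4 treatments in Ishikawa, which is CTNNB1 wild type, and in Ishikawa-S33Y and SNGM, which are CTNNB1-mutated. Every HEC265 library, control libraries included, carries the line's own beta-catenin mutation, so the comparison holds no wild-type HEC265 cells. The 2 libraries of a group were plated as duplicates of 1 line. The p-values therefore measure only the spread between duplicates, pooled over all 32 libraries, and this spread may be technical.

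SM08502 is an inhibitor of CDC-like kinases (CLK). These enzymes add phosphate to SR proteins, a family of RNA-binding splicing factors. Phosphorylation controls where SR proteins sit in the nucleus and which exons they help to include, and transcripts with retained introns or poison exons can be degraded by nonsense-mediated decay (NMD). Paclitaxel binds beta-tubulin in the microtubule, stabilises it and holds dividing cells in mitosis. In endometrial cancers, mutations that stabilise beta-catenin keep the Wnt transcription programme on without a Wnt ligand.

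Values are CPM, the reads of a gene scaled to a library total of 1000000 reads, back-calculated from the deposited log10(CPM + 1). The 4 compared libraries held 20.9 to 25.9 M reads (M, 1000000), at which 3 reads correspond to 0.116 to 0.143 CPM. Differences are on the log2(CPM + 1) scale, combination minus vehicle unless stated, with the standard error (SE) and a Benjamini-Hochberg adjusted p from a limma model of all 32 libraries, and this scale understates changes of low genes. Genes with an adjusted p below 0.05 are referred to as called. Duplicates differed on the log2 scale by a root mean square of 0.0799 for vehicle and 0.126 for the combination, computed over 8524 genes with high levels. RNA input was 500 ng for each of the 4 libraries. Libraries of the whole series held 1.61 to 34.1 M reads and set part of the spread used in the test. CPM is relative to all RNA of the culture, so that fewer cells of a kind and less RNA per cell cannot be told apart.

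The combination changed the level of 3319 of 17011 genes tested. Of these, 2101 rose, which is 12.4% of the genes tested, and 1218 fell, which is 7.16%. At least 2-fold rises numbered 182 (1.07%) and at least 2-fold falls 246 (1.45%), and 7 genes rose and 9 fell at least 4-fold. The median difference over all genes was 0.09, and scaling moved it to -0.02 when each library was re-centred on its median and to 0.02 after quantile normalization. With that shift the share of calls that were rises went from 63.3% to 41.1% and 47.9%, respectively. Among 2-fold calls that share was 42.5%, and it was 24.7% re-centred, 25.3% after quantile normalization, 57.7% with a pseudocount of 0.1 and 62.5% with limma voom. When the 8 HEC265 libraries alone set the spread, 8034 genes were called, with more calls in 29 of the 31 gene lists described here and over 1.5 times as many in 22, and leaving out 1 of the 4 libraries in turn gave 1578 to 2180 calls, the fewest without replicate 2 of the combination.

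**Figure D1:**
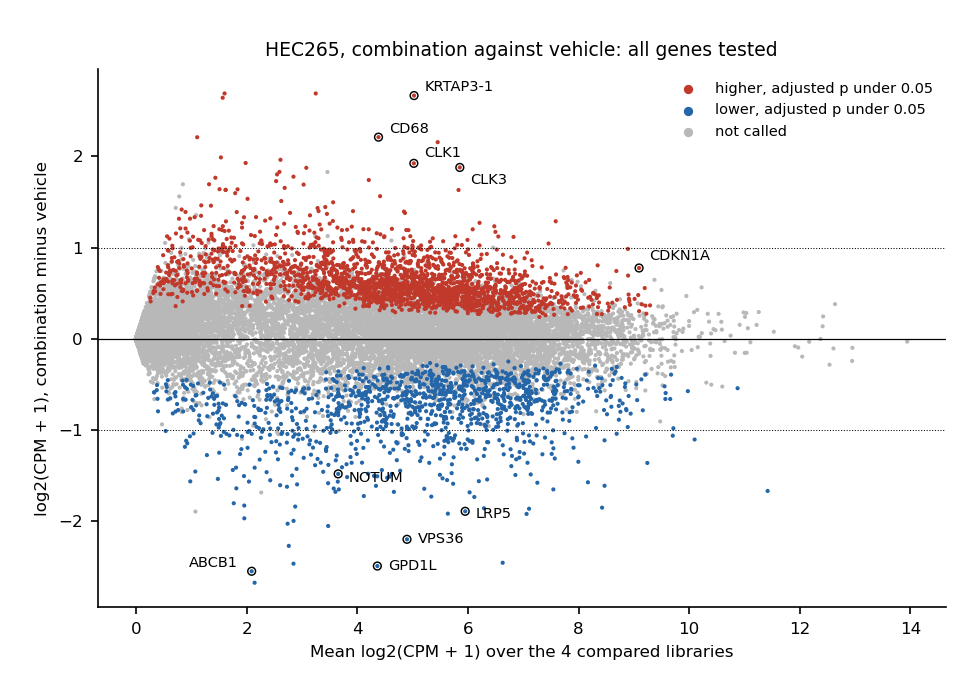
Each point is 1 of the 17011 genes tested in HEC265, with its mean log2(CPM + 1) over the 4 compared libraries on the x axis and the log2(CPM + 1) difference, combination minus vehicle, on the y axis. Red points are the 2101 rises and blue points the 1218 falls called by limma, dotted lines mark a 2-fold change, and circled genes are described in the text.

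Of the kinases that SM08502 targets, all 4 CLK genes rose, and CLK1 and CLK3 were among the 15 largest rises. CLK1, at chr2:200853009-200864658 (gene positions are those of RefSeq, GRCh38.p14), phosphorylates SR proteins and has an exon whose skipping inactivates the kinase. It was at 15.1 and 16.3 CPM with vehicle and at 61.4 and 63.1 CPM with the combination (log2 difference 1.92, SE 0.14, adjusted p = 2.4e-08). CLK3, at chr15:74608372-74630201, was at 29 and 29.3 CPM with vehicle and at 112 and 108 CPM with the combination (1.88, SE 0.15, adjusted p = 4.65e-08). The CLK4 level was 11.3 and 11.5 CPM with vehicle against 35.5 and 35.7 CPM with the combination (1.56, SE 0.16, adjusted p = 1.34e-06). For each of the 3 kinases both combination libraries lay above both vehicle libraries by over 2-fold. CLK2 changed less, from 23.7 and 24.6 CPM to 36.2 and 33.7 CPM (0.51, SE 0.12, adjusted p = 0.0041). Of 12 CLK, SRPK and DYRK kinases tested, these 4 rose and 8 were not called, with a list median of 0.26 against 0.09 for all genes. The 4 calls stood whichever of the 4 libraries was left out. SRPK1, another SR protein kinase, was at 258 and 265 CPM with vehicle and at 317 and 316 CPM with the combination (0.28, adjusted p = 0.0674), and DYRK1A at 122 and 122 CPM with vehicle and at 120.2 and 135 CPM with the combination (0.06, adjusted p = 0.827). CLK3 overlaps the antisense gene CLK3-AS1 and CLK4 a 7SK pseudogene, and their reads could be shared, because no source used here gives the strand setting of the counting.

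The SR proteins, the substrates of these kinases, moved little at the level of total mRNA. Among 17 SR proteins and co-factors, SRSF6 (0.27, SE 0.08, adjusted p = 0.0279) and SRSF11 (0.28, SE 0.08, adjusted p = 0.0203) rose and 15 were not called, with a median of 0.02. These rises made up 11.8% of the list, against 12.4% of all genes tested. SRSF6 was at 196 and 210.1 CPM with vehicle and at 253 and 237 CPM with the combination, and both calls were lost after re-centring (adjusted p = 0.33 and 0.223) and without any 1 of the 4 libraries. SRSF2 was at 345 and 353 CPM with vehicle and at 288 and 274 CPM with the combination (-0.31, adjusted p = 0.072) and SRSF3 at 470.2 and 471 CPM with vehicle and at 393 and 369 CPM with the combination (-0.31, adjusted p = 0.127). For SRSF2 and SRSF3 the combination libraries lay below the vehicle libraries, and both were called lower when HEC265 libraries alone set the spread. TRA2B, an SR-like splicing regulator, was at 269 and 264 CPM with vehicle and at 304 and 289 CPM with the combination (0.15, adjusted p = 0.328), and SRSF7 differed by -0.07, adjusted p = 0.834. These are gene totals: splicing events were not analysed here.

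Of 25 hnRNPs and core spliceosome components, 6 rose and 2 fell. PRPF8, the scaffold at the catalytic centre of the spliceosome, was at 1219 and 1188 CPM with vehicle and at 609.9 and 544 CPM with the combination (-1.06, SE 0.25, adjusted p = 0.00382), although without replicate 2 of the combination its adjusted p was 0.0515. HNRNPD, which binds AU-rich RNA, was at 307 and 306 CPM with vehicle and at 152 and 146 CPM with the combination (-1.04, SE 0.13, adjusted p = 1.26e-05). Levels of both were lower in each combination library than in each vehicle library. The rises were those of SF1 (0.74), which recognises the branch point, LUC7L3 (0.61), SF3B1 (0.50), HNRNPH1 (0.48), LUC7L (0.45) and RBM39 (0.34). The number of rises was 4 and 4 without combination replicates 1 and 2, respectively, and 2 and 4 without vehicle replicates 1 and 2, and SF1 was not among them in any case (adjusted p = 0.0982 to 0.158). Re-centring gave 5 rises and 4 falls.

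Factors of nonsense-mediated decay tended upward: 6 of 14 rose, the other 8 were not called, and the median was 0.40. RBM8A, a core subunit of the exon junction complex, was at 77.5 and 82.2 CPM with vehicle and at 149 and 149.6 CPM with the combination (0.90, SE 0.13, adjusted p = 5e-05). Its partner MAGOH rose by 0.48, the UPF1 partners UPF3B by 0.71 and UPF3A by 0.52, the kinase SMG1 by 0.54 and its regulator SMG8 by 0.59. UPF1 itself, the central helicase, was at 94.1 and 93.7 CPM with vehicle and at 127 and 136 CPM with the combination (0.48, adjusted p = 0.219), and UPF2 differed by 0.01. The number of rises was 2 and 2 without combination replicates 1 and 2, respectively, and 2 and 3 without vehicle replicates 1 and 2. RBM8A overlaps GNRHR2, so its reads could be shared.

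Transcriptional cyclin-dependent kinases and their partners showed 6 rises among 16 genes tested and a median of 0.37. CDK9, the kinase of the elongation factor P-TEFb, was at 41.8 and 43.6 CPM with vehicle and at 92 and 91.3 CPM with the combination (1.08, SE 0.13, adjusted p = 5.44e-06). HEXIM1, which holds P-TEFb inactive, rose by 0.71, the splicing-linked CDK11A by 0.77, and the cyclins CCNL1, CCNT2 and CCNL2 by 0.46, 0.46 and 0.35. All 16 genes had both combination libraries above both vehicle libraries, the other 10 without being called. The same held for 46.2% of all genes tested. The rises numbered 4 and 2 without combination replicates 1 and 2, respectively, and 3 and 4 without vehicle replicates 1 and 2.

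**Figure D2:**
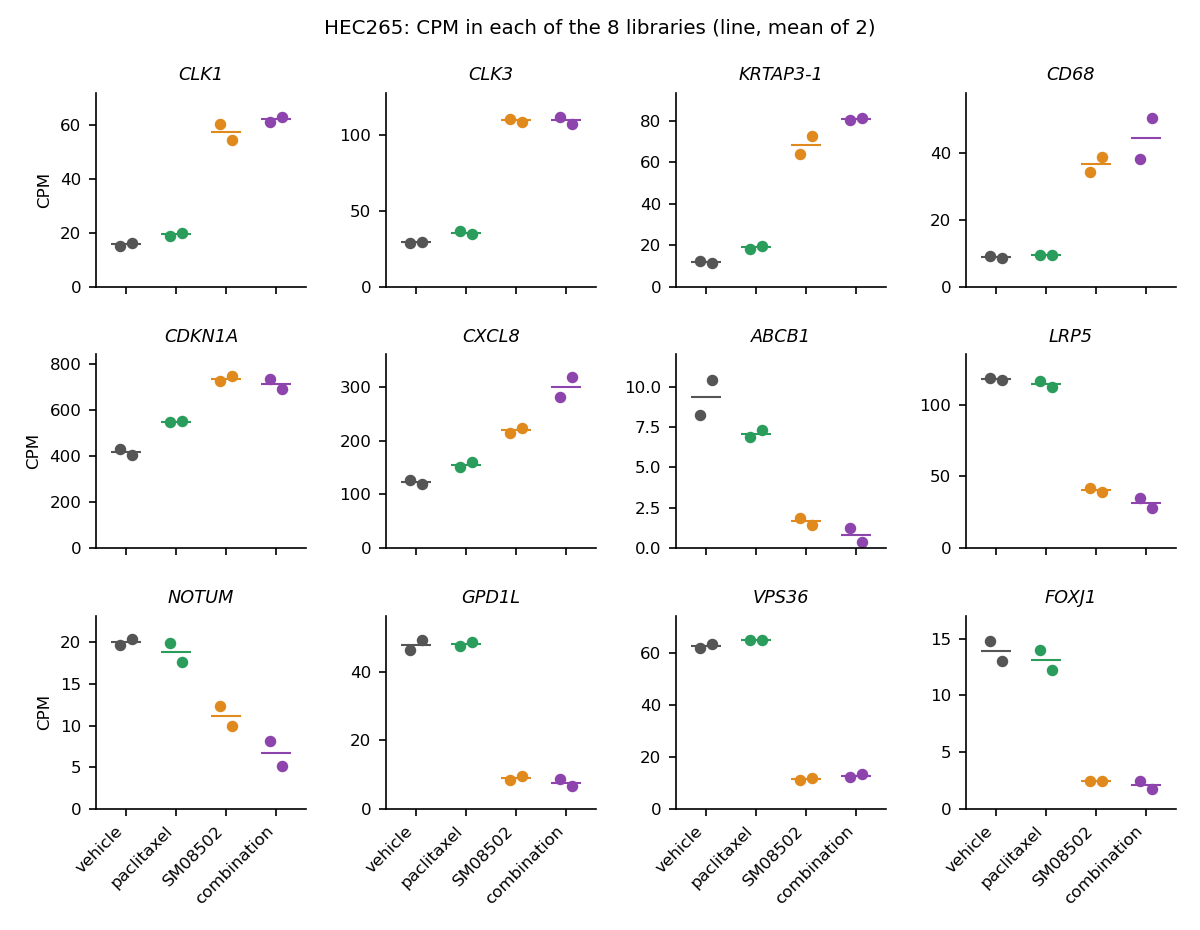
CPM on a linear axis from 0 for 12 genes in each of the 8 HEC265 libraries, 2 per treatment, with a line at the mean of 2. The 6 genes CLK1, CLK3, KRTAP3-1, CD68, CDKN1A and CXCL8 were higher and the other 6 lower with the combination than with vehicle, and no combination library of these genes overlapped a vehicle library.

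Several receptors of the Wnt pathway fell. LRP5, a co-receptor of Wnt ligands at chr11:68298412-68449275, was at 118 and 118 CPM with vehicle and at 35.1 and 27.5 CPM with the combination (-1.89, SE 0.33, adjusted p = 0.000285). Its paralog LRP6 was at 96.6 and 93.7 CPM with vehicle and at 94.4 and 103 CPM with the combination (0.05, adjusted p = 0.881), with overlapping groups. Among Frizzled receptors, FZD2 went from 16.3 and 14.6 CPM to 6.85 and 5.64 CPM (-1.19, SE 0.16, adjusted p = 1.6e-05), and FZD7 (-0.60), FZD6 (-0.56) and FZD9 (-0.48) also fell. ROR1, a receptor for non-canonical Wnt ligands, was at 96.3 and 98.8 CPM with vehicle and at 48.9 and 53 CPM with the combination (-0.92, SE 0.14, adjusted p = 0.000101). In all, 6 of 15 receptors fell and the other 9 were not called, with a median of -0.48. The falls numbered 5 and 3 without combination replicates 1 and 2, respectively, and 3 and 3 without vehicle replicates 1 and 2. They were 8 after re-centring and 11 when HEC265 alone set the spread. None of 14 destruction complex and beta-catenin genes was called by limma (1 had an unadjusted p under 0.05, and limma voom also called 0), and their median was 0.08. With HEC265 alone setting the spread, 5 of the 14 were called higher and 1 lower. CTNNB1 itself was at 409 and 414 CPM with vehicle and at 444 and 424 CPM with the combination (0.08, SE 0.12, adjusted p = 0.767).

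Genes that beta-catenin and its TCF partners are known to activate, listed together with TCF factors, included 5 falls among 17 tested, and 12 were not called. NOTUM, a secreted carboxylesterase that inactivates Wnt ligands (chr17:81952507-81961187), was at 19.7 and 20.3 CPM with vehicle and at 8.14 and 5.21 CPM with the combination (-1.48, SE 0.18, adjusted p = 9.26e-06). TNFRSF19, a receptor of the tumour necrosis factor family, was at 34 and 34.4 CPM with vehicle and at 19 and 14.1 CPM with the combination (-1.02, SE 0.22, adjusted p = 0.00208). BMP4 fell by 0.76 on the log2 scale and ZNRF3, a ubiquitin ligase that removes Frizzled receptors, fell by 0.60. AXIN2, the feedback inhibitor often used to read out the pathway, was at 144 and 145 CPM with vehicle and at 108 and 92.5 CPM with the combination (-0.53, SE 0.18, adjusted p = 0.0386), and its call was lost without any 1 of the 4 libraries (adjusted p = 0.059 to 0.286). LEF1 was at 12 and 12.7 CPM with vehicle and at 9.38 and 6.97 CPM with the combination (-0.56, adjusted p = 0.0757). MYC (0.18, adjusted p = 0.365) and CCND1 (0.18, adjusted p = 0.654), target genes that drive growth, had higher values in both combination libraries than in either vehicle library without being called. The falls numbered 3 and 1 without combination replicates 1 and 2, respectively, and 2 and 2 without vehicle replicates 1 and 2. The median of the 17 genes was -0.24, and DKK4, WIF1 and FGF20, at 0 to 0.143 CPM, were too low to test. NOTUM and AXIN2 were lower with the combination (8.14 and 5.21 CPM; 108 and 92.5 CPM) than with SM08502 alone (12.3 and 9.95 CPM; 133 and 131 CPM), differences of -0.68, adjusted p = 1 and -0.39, adjusted p = 1.

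The p53 pathway gave the most frequent rises of the cell cycle lists, with 13 of 20 targets higher, 7 not called and a median of 0.46. CDKN1A, the p21 inhibitor of cyclin-dependent kinases, was at 429 and 404 CPM with vehicle and at 737 and 692 CPM with the combination (0.78, SE 0.13, adjusted p = 0.000154). FDXR, a mitochondrial reductase, was at 15.7 and 16.8 CPM with vehicle and at 33.2 and 28.5 CPM with the combination (0.88, SE 0.14, adjusted p = 0.00013). The nuclease AEN (0.76), the antiproliferative BTG2 (0.73), the BH3-only death protein BBC3 (0.70) and the glycolysis regulator TIGAR (0.69) rose as well. MDM2, the ligase that degrades p53, was at 494 and 488 CPM with vehicle and at 609 and 602 CPM with the combination (0.30, SE 0.10, adjusted p = 0.0366). The MDM2 call was lost after re-centring (adjusted p = 0.267) and without any 1 of the 4 libraries. PMAIP1 (-0.03) and SESN2 (-0.13) had negative values and were not called. The rises numbered 6 and 9 without combination replicates 1 and 2, respectively, and 6 and 8 without vehicle replicates 1 and 2, and were 9 after re-centring and 18 with the HEC265 libraries alone.

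Paclitaxel alone is set beside these values because p53 targets were positive there too. With paclitaxel against the same vehicle libraries the 20 targets had differences of 0.03 to 0.54 and a median of 0.28, against 0.03 for all genes. No target was called in that comparison by limma or by limma voom. CDKN1A was at 548 and 553 CPM with paclitaxel, 726 and 750.2 CPM with SM08502 and 737 and 692 CPM with both. MDM2 was at 592 and 625 CPM, 625 and 637 CPM and 609 and 602 CPM in the same order. For both genes every treated library lay above both vehicle libraries, and the combination libraries overlapped (CDKN1A) or lay below (MDM2) those with SM08502 alone.

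In the cell cycle machinery, G1 regulators split into 3 rises and 3 falls among 19. Each is 15.8% of the list, against 12.4% and 7.16% of all genes tested. The rises were those of CDKN1A, of the phosphatase CDC25A (0.65) and of the S-phase cyclin CCNE2 (0.62). The falls were those of the inhibitors CDKN1C (-1.01, SE 0.18, adjusted p = 0.000308) and CDKN1B (-0.60) and of the pocket protein RBL2 (-0.68). Mitotic genes had a median of -0.33, and 2 of 20, the cyclins CCNB2 and CCNB1, fell (10%, against 7.16% of all genes tested). CCNB2 was at 105 and 110.2 CPM with vehicle and at 70.6 and 63 CPM with the combination (-0.68, SE 0.14, adjusted p = 0.00141). CCNB1 was at 222 and 227 CPM with vehicle and at 173 and 153 CPM with the combination (-0.46, SE 0.15, adjusted p = 0.0294). The CCNB1 call was lost without any 1 of the 4 libraries and without a filter (adjusted p = 0.0569). The CCNB2 call was kept in each of these cases. Any other fall counted without 1 library was therefore that of another mitotic gene. Falls of mitotic genes numbered 2 and 1 without combination replicates 1 and 2, respectively, and 1 and 1 without vehicle replicates 1 and 2, 6 after re-centring and 14 when HEC265 alone set the spread. CDK1 differed by -0.20, adjusted p = 0.603 and the mitotic kinase PLK1 by -0.40, adjusted p = 0.0667.

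Of the replication genes tested 10% rose and 5% fell, and of the repair genes 25% rose and 0% fell. The shares over all genes tested were 12.4% and 7.16%. Among 20 replication genes, ORC1 (0.43) and TK1 (0.39) rose and POLA1, the catalytic subunit of the primase-linked polymerase, fell from 84.8 and 84.2 CPM to 50.8 and 46.8 CPM (-0.78, SE 0.13, adjusted p = 0.000153). The rises of ORC1 and TK1 were not called without any 1 of the 4 libraries. Of 16 DNA repair genes, 4 rose, among them PALB2, ATM and ATR by 0.42, 0.41 and 0.32. These 4 rises came to 0 without replicate 1 of the combination and to 1 without any other single library, and re-centring gave 2 rises and 1 fall.

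The BCL2 family, which decides the release of cytochrome c from mitochondria, split into 5 rises and 3 falls among 15 tested. Of the death-promoting members BIK (0.88), BAK1 (0.70), BBC3 and BAX (0.36) rose. The survival member MCL1 was at 206 and 202 CPM with vehicle and at 246 and 271 CPM with the combination (0.33, SE 0.11, adjusted p = 0.0322). The survival members BCL2 (29.6 and 28 CPM against 15.3 and 16.6 CPM; -0.81, SE 0.13, adjusted p = 0.000202), BCL2L2 (-0.45) and BCL2L1 (-0.38, SE 0.12, adjusted p = 0.0315) fell. The rises numbered 1 and 1 without combination replicates 1 and 2, respectively, and 1 and 2 without vehicle replicates 1 and 2, and 1 fall was called in each case, the calls of MCL1, BCL2L1 and BIK being lost throughout. Re-centring gave 2 rises and 4 falls. BBC3 and BAX are also counted among the p53 targets.

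For the tubulins, a family that includes paclitaxel's target beta-tubulin, the median mRNA difference was 0.10 against 0.09 for all genes. Of 15 tubulins TUBG1 rose (6.67%) and TUBB3 fell (6.67%), against 12.4% and 7.16% of all genes. When the HEC265 libraries alone set the spread, 4 rose and 2 fell. TUBB3 is a neuronal beta-tubulin often studied in taxane resistance. TUBB3 was at 44.3 and 43 CPM with vehicle, 55.6 and 56.2 CPM with paclitaxel, 27 and 28.8 CPM with SM08502 and 34.5 and 29.5 CPM with both (-0.44, SE 0.11, adjusted p = 0.00483 against vehicle). The paclitaxel libraries were thus the highest and the 2 groups with SM08502 the lowest. The fall was not called without replicate 2 of the combination (adjusted p = 0.114), nor was the rise of TUBG1 without any 1 of the 4 libraries. TUBB, the most widely expressed beta-tubulin gene, was at 2244 and 2192 CPM with vehicle and at 2007 and 1981 CPM with the combination (-0.15, adjusted p = 0.563). Of 16 microtubule-binding proteins, the plus-end proteins CLASP2 (-0.51, SE 0.12, adjusted p = 0.00347) and CLASP1 (-0.40) fell (12.5%, against 7.16% of all genes). These falls numbered 1 and 0 without combination replicates 1 and 2, respectively, and 1 and 1 without vehicle replicates 1 and 2.

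Of 9 drug transporters tested, 4 fell, 1 rose and 4 were not called, and the largest fall was that of a pump that exports paclitaxel. ABCB1, which encodes P-glycoprotein (chr7:87503017-87713295), was at 8.28 and 10.4 CPM with vehicle, 6.85 and 7.33 CPM with paclitaxel, 1.87 and 1.41 CPM with SM08502 and 1.24 and 0.382 CPM with the combination. The difference from vehicle was -2.55, SE 0.33, adjusted p = 1.58e-05, and the combination libraries held 29 and 8 reads. ABCC2, an export pump for conjugates, was at 70.8 and 74.5 CPM with vehicle and at 26 and 17.2 CPM with the combination (-1.73, SE 0.17, adjusted p = 4.57e-07). ABCC4 (-0.68) and ABCC3 (-0.63) fell and ABCC5 rose (0.77, SE 0.13, adjusted p = 0.00023). ABCG2 and ABCB4 had values of 0 to 0.0955 CPM in the 4 libraries. ABCB1 overlaps RUNDC3B and a pseudogene.

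Immediate early genes and NF-kappaB responsive genes had the highest list medians. Of 18 immediate early genes 10 rose and 1 fell, with a median of 0.65. IER3, which limits apoptosis, was at 56.8 and 57.4 CPM with vehicle and at 134 and 137 CPM with the combination (1.23, SE 0.12, adjusted p = 6.29e-07). JUN, a subunit of the AP-1 factor, was at 35.5 and 41 CPM with vehicle and at 63.8 and 65.4 CPM with the combination (0.74, SE 0.17, adjusted p = 0.00372), and KLF6 (0.92), NR4A1 (0.88), ZFP36 (0.87), DUSP6 (0.83), JUNB (0.81) and FOSL1 (0.80) rose with it. FOS went the other way, from 19 and 16.3 CPM to 11.1 and 9.55 CPM (-0.72, SE 0.17, adjusted p = 0.00504), and EGR1 differed by -0.07, adjusted p = 0.959. FOS was not called without combination replicate 2 or vehicle replicate 1, nor JUN without vehicle replicate 1 (adjusted p = 0.0769, 0.0749 and 0.0605). Without 1 library 7 to 10 rises were called.

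Among 19 NF-kappaB responsive genes 10 rose and 9 were not called, with a median of 0.49. CXCL8, the neutrophil attractant interleukin-8, was at 126 and 118 CPM with vehicle and at 282 and 318 CPM with the combination (1.29, SE 0.23, adjusted p = 0.000432). BIRC3, an inhibitor of apoptosis protein, was at 63.7 and 61.3 CPM with vehicle and at 133 and 141 CPM with the combination (1.12, SE 0.17, adjusted p = 9.76e-05). The subunits RELB (1.00), NFKB2 (0.89) and RELA (0.61), the inhibitors TNFAIP3 (0.82) and NFKBIA (0.51) and the cytokines TNF (0.84), IL1A (0.81) and CCL20 (0.41) rose. CXCL1 and CXCL3 had 0 reads in all 4 libraries. The rises numbered 7 and 7 without combination replicates 1 and 2, respectively, and 6 and 6 without vehicle replicates 1 and 2, and re-centring and quantile normalization gave 8 each.

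Promoter sequence is shown for this list because 10 of its members rose and its factor has a well-known site. The letters GGANNTTCC, a core of the NF-kappaB site, were searched on both strands (reverse complement GGAANNTCC) in the 250 bases before the start of each gene in RefSeq (GRCh38.p14). They occur in 3.88% of 27305 promoters and in 9 of the 16 list members with a promoter sequence. Of 9 members that rose and have a sequence, 3 held the letters, as did 6 of 7 that were not called. These 6 include CXCL1 and CXCL3, which had 0 reads and could not be called, so no conclusion is drawn. The windows of the 3 that rose and of CXCL1, which had 0 reads, are given 5′ to 3′ on the gene's strand, with the match in capitals and up to 20 bases on each side. The CXCL8 match lies 91 bases before the start, the NFKBIA match shown 81, the TNFAIP3 match 67 and the CXCL1 match 78, and NFKBIA has a second match 242 bases before the start. The motif was chosen after the list's values were seen, and a match is not a measured binding site.
CXCL8, chr4:73740458-73740506, plus strand: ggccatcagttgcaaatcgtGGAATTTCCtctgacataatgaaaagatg
NFKBIA, chr14:35404802-35404850, minus strand: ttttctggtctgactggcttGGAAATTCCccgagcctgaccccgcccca
TNFAIP3, chr6:137867172-137867220, plus strand: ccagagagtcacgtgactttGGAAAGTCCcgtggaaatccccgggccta
CXCL1, chr4:73869295-73869343, plus strand: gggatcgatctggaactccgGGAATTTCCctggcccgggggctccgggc

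Other stress programmes differed from each other in direction. Genes of the integrated stress response gave 6 falls and 1 rise among 16. ATF3, a stress-induced repressor, was at 7.88 and 8.92 CPM with vehicle and at 15.8 and 20.1 CPM with the combination (1.00, SE 0.15, adjusted p = 5.54e-05). The amino acid synthesis enzymes PSAT1 (458 and 463 CPM against 276 and 259 CPM; -0.78, SE 0.11, adjusted p = 4.93e-05), ASNS (-0.71) and PHGDH (-0.69) fell, as did TRIB3 (-0.44) and XBP1 (-0.38). DDIT3, the CHOP death factor, stayed near 2 CPM at 1.82 and 1.78 CPM with vehicle and at 1.8 and 2.1 CPM with the combination (0.07, adjusted p = 0.838). Of 13 heat shock chaperones 12 had both combination libraries above both vehicle libraries, against 46.2% of all genes tested. The list median was 0.29 against 0.09 for all genes. DNAJB1 (0.38, SE 0.09, adjusted p = 0.0049) and DNAJA1 (0.34) rose (15.4%, against 12.4% of all genes) and the other 11 were not called. Both calls were lost after re-centring, and 1 rise was called whichever of the 4 libraries was left out. Among 18 interferon response genes, ISG15 (1.06, SE 0.25, adjusted p = 0.00479), IRF7 (0.93) and OAS3 (0.64) rose, whereas 3 fell, the RNA sensor DDX58 (-0.53) and IFIT2 (-0.74) among them. Rises and falls were 16.7% each, against 12.4% and 7.16% of all genes tested. The rises of this list numbered 2 and 3 without combination replicates 1 and 2, respectively, and 3 and 0 without vehicle replicates 1 and 2, and 1 after quantile normalization. Its falls numbered 2 and 1 without combination replicates 1 and 2, respectively, and 2 and 2 without vehicle replicates 1 and 2.

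Genes of cholesterol synthesis and uptake fell, 10 of 17 being called lower and 7 not called, with a median of -0.47. LSS, which closes the sterol rings, was at 20.8 and 20.8 CPM with vehicle and at 10.5 and 9.12 CPM with the combination (-1.02, SE 0.20, adjusted p = 0.000872). The transcription factor SREBF2 (-0.63), its retention partner INSIG1 (-0.58) and the squalene epoxidase SQLE (-0.56) fell too. HMGCS1 (-0.08), IDI1 (-0.03), CYP51A1 (-0.07) and SREBF1 (-0.03), genes of the same pathway, were not called. The number of falls was 10 under both other scalings and with HEC265 alone, but 9 and 6 without combination replicates 1 and 2, respectively, and 6 and 6 without vehicle replicates 1 and 2. SCD, which makes monounsaturated fatty acids and is not on the list, was among the largest falls of all genes, from 266 and 258 CPM to 79.7 and 63.6 CPM (-1.86, SE 0.15, adjusted p = 4.65e-08).

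YAP target and partner genes included 4 falls among 12. F3, tissue factor, was at 335 and 325 CPM with vehicle and at 108 and 100.8 CPM with the combination (-1.65, SE 0.12, adjusted p = 2.4e-08), AXL, a receptor kinase, at 189 and 185 CPM with vehicle and at 80.0 and 77.3 CPM with the combination (-1.24, SE 0.18, adjusted p = 5.87e-05), and AJUBA (-0.73) and the YAP paralog WWTR1 (-0.63) fell too. The standard YAP reporters CYR61 (0.04, adjusted p = 0.919) and CTGF (-0.08, adjusted p = 0.834) were not called. The falls of this list numbered 7 after re-centring. Hypoxia genes gave 3 falls and 1 rise among 15, VEGFA going from 64.3 and 61.8 CPM to 36.8 and 36.8 CPM (-0.76, SE 0.15, adjusted p = 0.00109), and the hypoxia rise, of ANKRD37, was called in a leave-out only without vehicle replicate 1. Among 18 ESCRT genes, which act in membrane scission, VPS36 of the ESCRT-II complex (chr13:52412606-52450634) went from 62.1 and 63.6 CPM to 12.5 and 13.3 CPM (-2.20, SE 0.12, adjusted p = 3.06e-10), while CHMP2A (0.66) and 3 others rose. The ESCRT rises numbered 2 and 2 without combination replicates 1 and 2, respectively, and 1 and 2 without vehicle replicates 1 and 2, and 1 after re-centring.

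**Figure D3:**
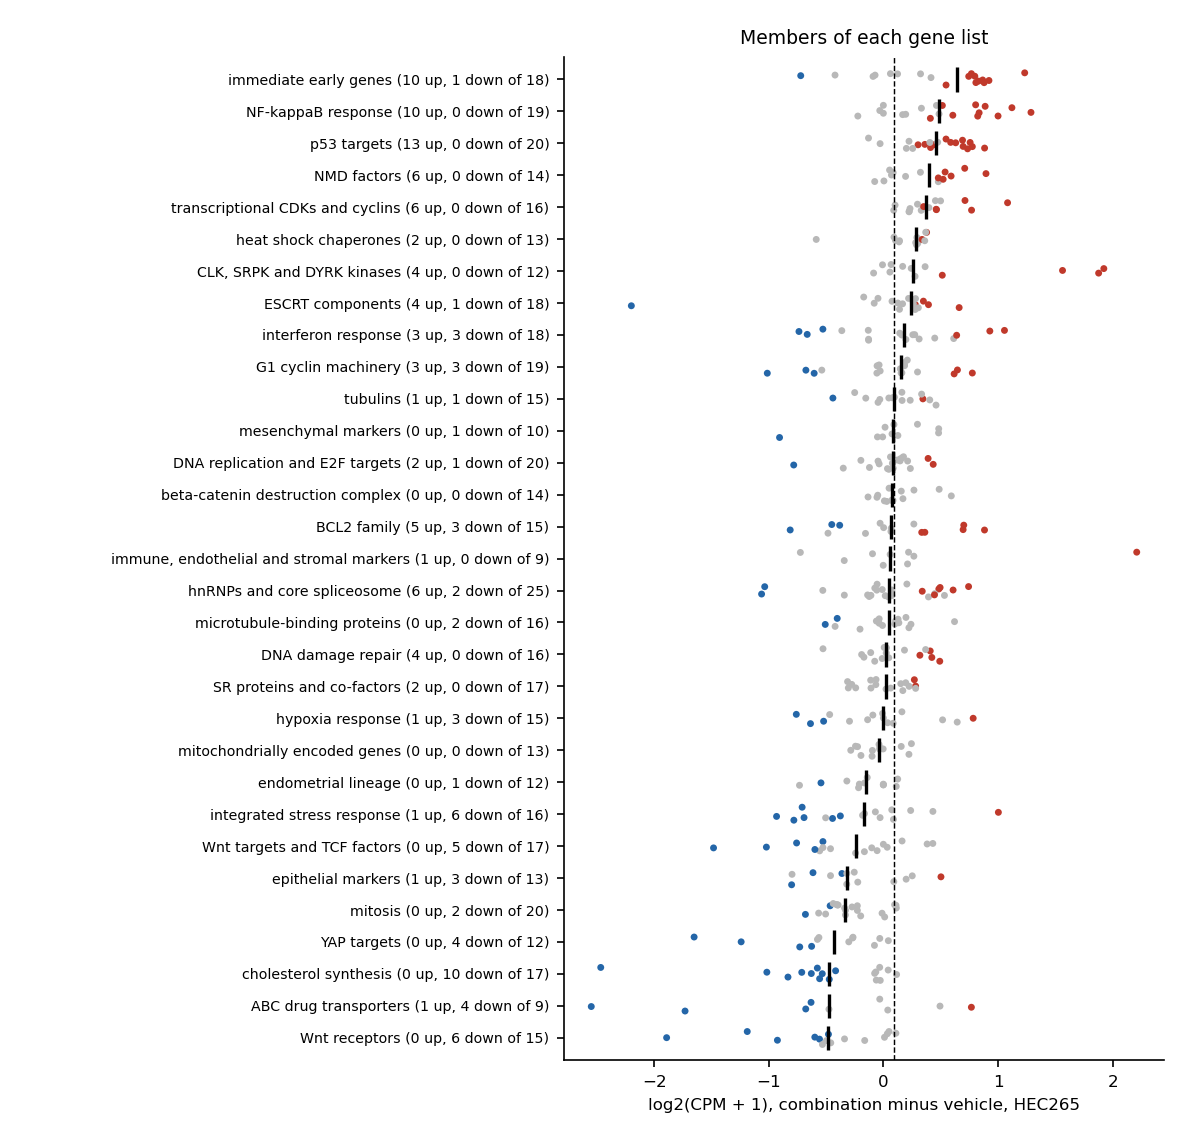
Each point is a tested member of 1 of 31 gene lists, with its log2(CPM + 1) difference, combination minus vehicle in HEC265, on the x axis; red and blue points are calls, thick ticks list medians and the dashed line the median of all genes, 0.09. Immediate early genes had the highest list median, 0.65, and Wnt receptors the lowest, -0.48.

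The identity of the cells was checked against markers. Epithelial genes were well expressed in all 4 libraries: EPCAM was at 257 and 257 CPM with vehicle and at 309.9 and 280.3 CPM with the combination, and KRT8 at 934 and 904 CPM with vehicle and at 815 and 728 CPM with the combination. Of 13 epithelial markers KRT19 rose (0.50, SE 0.15, adjusted p = 0.0195), a call lost without any 1 of the 4 libraries, and CDH1 (-0.80, SE 0.21, adjusted p = 0.00869), CLDN3 (-0.61) and KRT18 (-0.36) fell. CDH1, E-cadherin, was at 565 and 574 CPM with vehicle and at 339.7 and 314 CPM with the combination, and the falls of the list numbered 1 and 0 without combination replicates 1 and 2, respectively, and 0 and 0 without vehicle replicates 1 and 2, and 6 after re-centring. Of 12 endometrial lineage genes, PAX8 (183 and 174 CPM with vehicle), HOXA10 (54.7 and 58.1 CPM) and SOX17 (49 and 55.4 CPM) were expressed, ESR1 was at 0.0772 to 0.191 CPM, and PGR, HAND2 and HOXB5 had 0 reads in the 4 libraries, which allows levels of up to 0.116 to 0.143 CPM, counting error only. FOXA2 fell (-0.54, SE 0.17, adjusted p = 0.0262), a call lost without any 1 of the 4 libraries. Mesenchymal VIM was at 0.935 and 1.16 CPM with vehicle and at 1.29 and 0.812 CPM with the combination, and CDH2, N-cadherin, which these epithelial cells express, fell from 235 and 238 CPM to 133 and 119 CPM (-0.91, SE 0.16, adjusted p = 0.000286). None of 13 mitochondrially encoded genes was called by limma (0 at an unadjusted p under 0.05) or by limma voom.

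CD68, a lysosomal protein used as a macrophage marker, was among the largest rises, at 8.99 and 8.42 CPM with vehicle, 9.5 and 9.34 CPM with paclitaxel, 34.3 and 38.7 CPM with SM08502 and 38.2 and 50.4 CPM with both (2.21, SE 0.19, adjusted p = 8.21e-08). The other immune, endothelial and stromal markers were low or uncalled. Of 14 such genes 9 could be tested and CD68 alone was called. PTPRC, which marks all leukocytes, was at 0.89 and 0.849 CPM with vehicle and at 1.03 and 1.34 CPM with the combination, LYZ at 0 to 0.257 CPM and CD3E at 0 in each library. The summed level of the list was 34.4 and 32.9 CPM with vehicle and 58.5 and 69.2 CPM with the combination, of which CD68 made up 38.2 and 50.4 CPM. CD68 overlaps MPDU1-AS1, so its reads could be shared.

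Beyond the lists, the largest rises included 2 hair keratin-associated protein genes of chromosome 17. KRTAP3-1, at chr17:41008521-41009128, was at 12.5 and 11.4 CPM with vehicle, 18.3 and 19.5 CPM with paclitaxel, 63.9 and 72.9 CPM with SM08502 and 80.6 and 81.6 CPM with the combination (2.67, SE 0.14, adjusted p = 1.79e-10). KRTAP2-3 was at 19.2 and 20.3 CPM, 31.6 and 35.1 CPM, 57.2 and 60.6 CPM and 81.9 and 102 CPM in the same order (2.16, SE 0.33, adjusted p = 9.5e-05), and it has near-identical copies that could share its reads. In both genes each treatment group lay above the group before it without overlap. MTSS1, which links membranes to actin, went from 4.05 and 3.09 CPM to 12.6 and 14.8 CPM (1.69, SE 0.18, adjusted p = 1.47e-06), DNHD1, a dynein-like gene, from 3.2 and 3.63 CPM to 13.4 and 17.2 CPM (1.87, SE 0.28, adjusted p = 6.15e-05), and CXorf38 from 9.26 and 8.96 CPM to 31.4 and 34.1 CPM (1.74, SE 0.12, adjusted p = 1.48e-08).

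Of the 15 largest rises, several lie inside or across other genes, which makes their counts uncertain. CCDC150P1, a pseudogene within CLIP1, was at 2.63 and 2.86 CPM with vehicle and at 21.9 and 24.4 CPM with the combination (2.69). DDX11L2 (1.96) overlaps WASH2P, and SRRM5 (1.73) overlaps ZNF428. The read-through gene ZFP91-CNTF (1.83) overlaps CNTF (1.65), and NME1-NME2 (1.80) overlaps both genes it joins. NAT6 (1.78) had no match by symbol in the RefSeq table. The rise of NME1-NME2 was not called without vehicle replicate 1 or 2 or combination replicate 1 (adjusted p = 0.0651, 0.124 and 0.151), and that of SRRM5 not without replicate 2 of the combination (0.052).

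Among the 15 largest falls were enzymes, pore, cilium and membrane proteins. GPD1L, a glycerol-3-phosphate dehydrogenase, was at 46.4 and 49.2 CPM with vehicle and at 8.78 and 6.69 CPM with the combination (-2.49, SE 0.21, adjusted p = 8.21e-08). NUP210, a membrane protein of the nuclear pore, was at 234 and 227 CPM with vehicle and at 46.3 and 36.7 CPM with the combination (-2.45, SE 0.27, adjusted p = 2.55e-06). FOXJ1, the regulator of motile cilia, was at 14.8 and 13 CPM with vehicle and at 2.44 and 1.77 CPM with the combination (-2.27, SE 0.20, adjusted p = 1.55e-07). For these 3 genes both combination libraries lay over 4-fold below both vehicle libraries, and GPD1L and FOXJ1 overlap other annotated genes. GABRP, a GABA receptor subunit, was at 271 and 247 CPM with vehicle and at 67.9 and 67.4 CPM with the combination (-1.92, SE 0.39, adjusted p = 0.00115), CELSR1, a planar polarity cadherin, at 155 and 142 CPM with vehicle and at 40.3 and 40.0 CPM with the combination (-1.86, SE 0.25, adjusted p = 2.57e-05), and the secretoglobin SCGB3A2 at 98.1 and 93.4 CPM with vehicle and at 23.3 and 25.9 CPM with the combination (-1.92, SE 0.30, adjusted p = 0.000118). INHBE, an activin subunit (-2.05), LIX1 (-2.03) and the replication-dependent histone HIST1H3J (-2.0), whose family has near-identical copies, were also in this group, with ABCB1, VPS36, LRP5, SCD and RP11-73M18.2. The last was at 11 and 9.34 CPM with vehicle and at 2.06 and 0 CPM with the combination and was not called without replicate 2 of the combination (adjusted p = 0.0869).

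To see what each agent contributed, the combination was set beside its parts in HEC265. Against vehicle, SM08502 alone gave 1577 rises (9.27%) and 917 falls (5.39%), and paclitaxel alone gave 1 call (0.00588%), with 158 genes at an unadjusted p under 0.05. These comparisons share vehicle libraries with that of the combination. The paclitaxel call, RP11-958N24.2, had 0 reads in both vehicle libraries and 1.4 and 0.591 CPM with paclitaxel. The standard deviation of the log2 differences over the 11224 genes with a mean log2(CPM + 1) of at least 2 was 0.444 for the combination, 0.394 for SM08502 and 0.113 for paclitaxel. Of the 428 genes changed at least 2-fold by the combination, 397 were called the same way for SM08502.

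Adding SM08502 to paclitaxel raised 1428 genes (8.39%) and lowered 1110 (6.53%). This comparison, combination minus paclitaxel, shares no library with SM08502 minus vehicle, so that the effect of SM08502 could be read in separate libraries. Of the 2494 genes called for SM08502 without paclitaxel, 1943 (77.9%) were called the same way with paclitaxel present, which is 76.6% of the 2538 called there. No gene was called in opposite directions, and 2488 of the 2494 had the same sign. Across the 11224 genes, which come from the same 8 libraries and are not independent replicates, the differences correlated at r = 0.94. For CLK1 the difference was 1.81 without and 1.63 with paclitaxel, for LRP5 -1.53 and -1.85, and for VPS36 -2.33 and -2.25.

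Adding paclitaxel to SM08502 changed 1 gene at this threshold (0.00588%), with 237 at an unadjusted p under 0.05. SERPINB2, an inhibitor of plasminogen activators, was at 0.935 and 1.12 CPM with vehicle, 1.6 and 1.62 CPM with paclitaxel, 2.77 and 2.92 CPM with SM08502 and 5.4 and 8.26 CPM with both. The combination differed from SM08502 by 1.00, SE 0.16, adjusted p = 0.0452 and from vehicle by 1.93, SE 0.16, adjusted p = 5.75e-08. No gene was called without replicate 2 of the combination, the higher of its 2 libraries, nor without either vehicle library, which enters through the spread. The differences combination minus SM08502 and paclitaxel minus vehicle, which share no library, correlated at r = 0.30 over the 11224 genes. Departure from additivity, the combination minus both single agents plus vehicle, gave 0 calls by limma and by limma voom, while 106 (limma) and 295 (limma voom) had an unadjusted p under 0.05. When the HEC265 libraries alone set the spread, limma gave 0 calls for either comparison. An unadjusted limma p under 0.05 was then found for 2331 genes (combination minus SM08502) and 1246 genes (additivity). The few calls therefore do not show that paclitaxel had no effect or that the effects were additive.

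**Figure D4:**
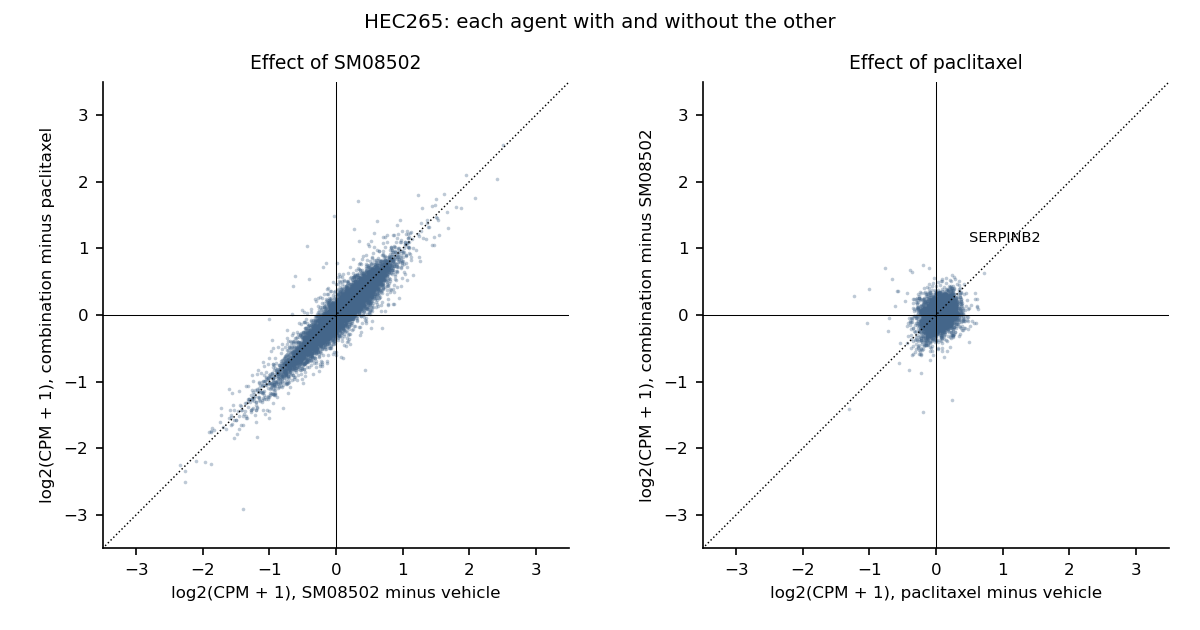
Left, the log2(CPM + 1) difference made by SM08502 without paclitaxel on the x axis and with it on the y axis; right, that made by paclitaxel without and with SM08502, both for 11224 HEC265 genes with a mean log2(CPM + 1) of at least 2 (points) and a dotted line of equality. The left cloud follows the line (r = 0.94) and the right one stays near 0 (r = 0.30). The label gives the position of the called gene SERPINB2, whose mean level lies just below that cut, so that it is not among the points.

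The response of HEC265 to the combination was tested against the mean response of Ishikawa, Ishikawa-S33Y and SNGM, which received other doses of each agent, so that dose and line cannot be told apart. The doses of paclitaxel and SM08502 were 11 and 80 nM in Ishikawa, 6 and 85 nM in Ishikawa-S33Y and 11.7 and 350.7 nM in SNGM, and RNA input was 350 ng for Ishikawa. In this test 560 genes had a higher response in HEC265 (3.29%) and 437 a lower one (2.57%). Higher responses made up 56.2% of these calls, 33.5% when libraries were re-centred and 47.8% with quantile normalization. All calls of the combination against vehicle covered 22.8% of the genes tested in Ishikawa, 42% in Ishikawa-S33Y and 18.4% in SNGM. Among the 428 genes that the combination changed at least 2-fold in HEC265, Ishikawa had 227 called the same way, Ishikawa-S33Y 275 and SNGM 181, while 7, 15 and 6 were called the opposite way in these lines. In all 3 other lines 106 of the 428 were called the same way, and in none of them 90. For 155 of the 428 the difference between HEC265 and the other lines was itself called. Replicate 2 of the combination was shallow in Ishikawa-S33Y and SNGM (2.99 and 1.61 M reads). Without these 2 libraries 4622 genes were called in HEC265, including all 3319, an alternative chosen after seeing the data.

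CLK3 rose more in HEC265 than in the other lines (difference 1.06, SE 0.17, adjusted p = 0.000602), its response being 1.88 against 0.91, 0.96 and 0.59 in Ishikawa, Ishikawa-S33Y and SNGM. For CLK1 the responses were 1.92, 1.76, 1.87 and 1.44, with no called difference (0.23, SE 0.16, adjusted p = 0.468). VPS36 fell more in HEC265 (-0.84, SE 0.14, adjusted p = 0.000916), whereas LRP5 did not differ detectably (0.01, SE 0.38, adjusted p = 0.992). Among immediate early genes 8 of 18 had a higher response in HEC265, against 3.29% of all genes. IER3 (1.40, SE 0.14, adjusted p = 3.63e-06) and JUN (1.08, SE 0.20, adjusted p = 0.00194) were among them. JUN responded by 0.74 in HEC265 and by -0.22, -0.15 and -0.63 in the other lines. Among 16 stress response genes 7 had a lower response in HEC265, against 2.57% of all genes. ASNS (-1.50, SE 0.12, adjusted p = 6.12e-07) and PSAT1 (-1.13, SE 0.13, adjusted p = 1.93e-05) were included. Of 15 hypoxia genes 7 had a higher response in HEC265. The list median there was -0.01, against -0.16 in Ishikawa, -1.09 in Ishikawa-S33Y and -0.35 in SNGM. CXCL8 responded by 1.29 against -0.75, -0.52 and 0.67 (1.49, SE 0.27, adjusted p = 0.00153). NOTUM fell more than in the other lines (-0.99, SE 0.21, adjusted p = 0.00658), with responses of -1.48 in HEC265 and -0.66, -1.05 and 0.23 elsewhere.

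**Figure D5:**
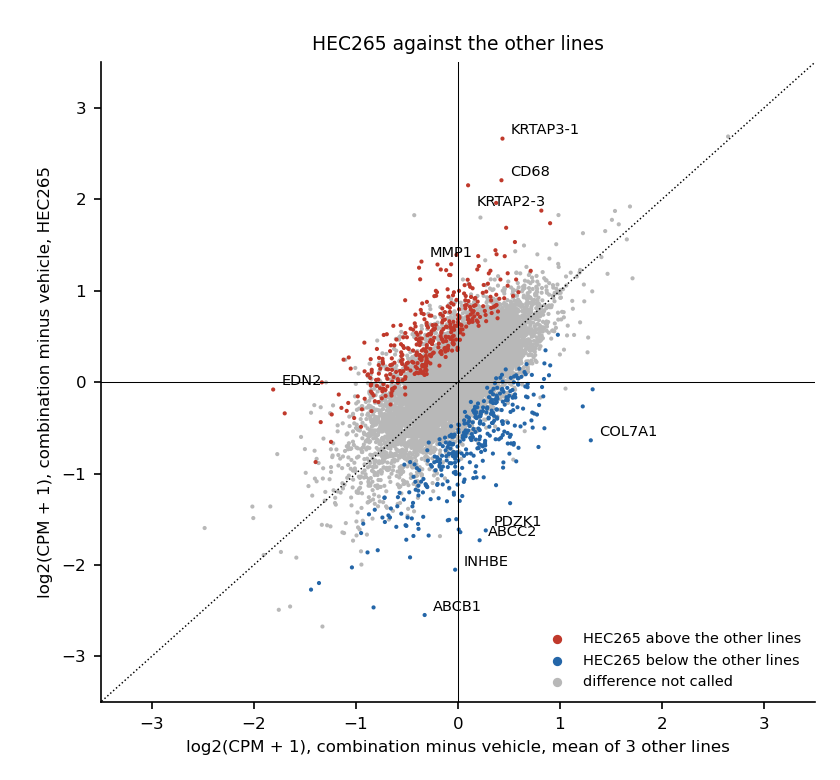
The log2(CPM + 1) difference, combination minus vehicle, as the mean of Ishikawa, Ishikawa-S33Y and SNGM on the x axis and in HEC265 on the y axis, for genes with a mean log2(CPM + 1) of at least 2 in the compared HEC265 libraries. Red and blue points are genes whose response in HEC265 was above or below the others (limma, adjusted p under 0.05), the dotted line marks equality, and KRTAP3-1 and ABCB1 lie farthest from it on the 2 sides among the named genes.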

How the data were processed

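RNA sequencing of 32 libraries (4 lines, 4 treatments, 2 replicates each) was used as the authors' deposited log10(CPM + 1) per gene for 35238 gene symbols. Bcl2fastq, STAR and kallisto and build GRCh38 were used, per the submitters' processing notes, whose versions are not given. The annotation, the counter and the strand setting are not given in the sources used here. Values were back-transformed to CPM, and of the values up to 1000 reads, 100% lay within 0.1 of a whole read. Every column was matched to its sample by its title, and 0 columns had no sample. Groups came from the labels. Splicing event tables were not analysed here. Some genes of the lists and of the named genes are counted but not reported here by name.

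Genes with at least 1 CPM in 2 or more of the 32 libraries were tested (17011). The test was limma 3.58.1 (R 4.3.3) with trend on log2(CPM + 1), all 32 libraries, 1 mean per line and treatment, 16 residual degrees of freedom and Benjamini-Hochberg adjustment over all genes. A limma voom fit of the recovered reads called 4612 genes against 3319. At the depth of the 4 libraries the floor of 3 reads was 0.116 to 0.143 CPM, which covers counting error only. Deviations of same-numbered HEC265 libraries correlated at -0.12 to 0.25 between groups. The value was -0.08 for vehicle and combination and highest, 0.25, for paclitaxel and combination. Replicate numbers were not treated as pairs in the main test.

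The members and gene lists were chosen with earlier results of these data known. Named genes are a fixed set, the 15 largest called rises and falls with a mean log2(CPM + 1) of at least 2, the 5 largest differences each way from the other lines, calls against SM08502, and the extremes and called members of lists. The paclitaxel call, the promoter motif and list members that were not called were chosen after their values were seen. Alternatives were other filters, pseudocounts, scalings, spreads and left-out libraries.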

Additional observations from a re-analysis of the deposited data

Results flagged for a closer look

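The response to the combination differed between HEC265 and the mean of the other 3 lines for 997 genes (limma, adjusted p under 0.05), and the 5 largest differences each way are given as values on the log2(CPM + 1) scale. The response was higher in HEC265 by 2.23 for KRTAP3-1, 2.05 for KRTAP2-3, 1.78 for CD68, 1.73 for EDN2, a vasoactive endothelin, and 1.68 for MMP1, a collagenase. It was lower by a difference of -2.22 for ABCB1, -2.03 for INHBE, -1.94 for ABCC2, -1.94 for COL7A1, the anchoring fibril collagen, and -1.90 for PDZK1, a scaffold of membrane transporters. Doses differed between lines, and their part in these differences cannot be told apart from that of the line.

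Behind a difference from the other lines stood unlike values within HEC265. EDN2 was at 11.4 and 11.7 CPM with vehicle and 11.7 and 10.1 CPM with the combination in HEC265 (-0.08, SE 0.20, adjusted p = 0.881), with overlapping groups, while its response was -2.05 in Ishikawa, -3.03 in Ishikawa-S33Y and -0.36 in SNGM. MMP1 was at 2.63 and 2.2 CPM and 6.21 and 9.03 CPM in HEC265 (1.32, SE 0.20, adjusted p = 9.05e-05), against -0.43, -0.38 and -0.26 in the other lines. PDZK1 was at 10.1 and 11.1 CPM and 2.78 and 2.77 CPM (-1.62, SE 0.19, adjusted p = 3.88e-06), against 0.12, 0.89 and -0.19. COL7A1 was at 24.0 and 23.7 CPM and 13.8 and 16.3 CPM (-0.64, SE 0.21, adjusted p = 0.0365), against 0.80, 1.25 and 1.86, and its fall in HEC265 was not called without any 1 of the 4 libraries (adjusted p = 0.0803 to 0.216), without a filter (0.0702), with a pseudocount of 0.1 (0.0667) or with replicate numbers as a block (0.0519).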

How the results depend on the processing

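The count of changed genes depended most on which libraries set the spread. The HEC265 libraries alone gave 8034 calls against vehicle and 7258 against paclitaxel, where the main counts were 3319 and 2538. Without 1 of the 4 libraries in turn the counts were 1578 to 2180 against vehicle and 985 to 2348 against paclitaxel. The 997 differences from the other lines became 371 to 515, and that comparison could not be fitted with HEC265 alone. In all these counts the lowest value was that without replicate 2 of the combination. The 428 changes of at least 2-fold became 737 with a pseudocount of 0.1 and 985 with limma voom.

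The 1 call against SM08502 became 7 without a filter, 2 without the shallow libraries (an alternative chosen after seeing the data), 0 to 1 without 1 library, and 0 with the stricter filter on level, the pseudocount of 0.1, re-centring, quantile normalization, HEC265 alone or limma voom. Departure from additivity, with 0 calls, gave 5 without a filter, 2 with a pseudocount of 0.1 and 1 after quantile normalization.

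Uncalled differences near 0 changed sign: after re-centring DYRK1A was at -0.0503, LRP6 at -0.0583, CTNNB1 at -0.0325 and DDIT3 at -0.0341. DDIT3 was at -0.0937 after quantile normalization. Without 1 library in turn DYRK1A ranged from -0.0239 to 0.138, LRP6 from -0.0107 to 0.109, DDIT3 from -0.000518 to 0.147 and EDN2 from -0.178 to 0.0172, the sign changing without replicate 2 of the combination. Of 96 named genes, 7 lost their call after re-centring and 19 to 23 without 1 library, and limma voom lost 0 and gained 3. The cause of these changes was not tested.

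With replicate numbers as a block, 3359 genes were called, and 94 of the 96 named genes kept their side of the threshold while COL7A1 (adjusted p = 0.0519) and MDM2 (0.0598) did not. The numbers are shared only as numbers. Depth limits low genes: at a floor of 0.116 to 0.143 CPM, changes of genes near 1 CPM rest on few reads.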

Other observations

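Gene span, the distance from start to end in RefSeq (GRCh38.p14, 16142 of the 17011 genes matched, 94.9%), differed between called groups. The median was 21.9 kb for genes called higher, 54.3 kb for genes called lower and 29.2 kb for all matched genes. In the quartile of the shortest genes 14.5% were called higher and 4.61% lower, and in the quartile of the longest 6.79% higher and 12.1% lower. The median log2(CPM + 1) difference was 0.13 in the shortest and 0.00 in the longest quartile. Mean level also differed between these quartiles, at a median log2(CPM + 1) of 2.92 and 4.58, and its part was not tested.

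Pseudogenes made up 11.4% of the matched genes that rose at least 2-fold and 0.823% of those that fell at least 2-fold, against 5.14% of the rest. Among all calls the higher share was not seen. Pseudogenes were 3.82% of matched genes called higher and 0.664% of those called lower, against 5.77% of those not called. The 2-fold rises had a median vehicle level of 3.36 CPM and the 2-fold falls one of 36.7 CPM. How far reads of pseudogenes are shared with parent or surrounding genes was not tested.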
